A study of Rattus norvegicus with 6 samples.

Results

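The expression of 6 genes proposed as causes of salt-sensitive hypertension in the Dahl rat, at loci away from chromosome 9, was followed in kidney RNA: Adamts16, Rffl, Plekha7, Sh2b3, Cd247 and Fh. Members were all probe sets to which the platform annotation gave 1 of these 6 gene symbols, Fh1 being accepted for Fh. This gave 6 of the 31099 probe sets of the array, so that 4 of the 6 genes were measured, among 14217 genes named on the array: 1 probe set for Adamts16, 2 for Rffl, 1 for Sh2b3 and 2 for Cd247. No probe set carried the symbol Plekha7, Fh or Fh1 in the annotation used, so those genes were not analysed here.

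Kidneys of male congenic rats were compared with those of male Dahl salt-sensitive (S) rats, 6 animals a strain. The congenic strain has the Dahl S background and carries a segment of chromosome 9 from the R strain, so by its construction it is meant to hold S alleles at the 6 loci studied here. Both strains were born on the same day, weaned at 30 days, fed 2% salt and killed at 53 days, with 1 rat of each strain in a cage. RNA of 2 rats made 1 pool, and 3 pools of each strain were hybridised to 1 Affymetrix Rat Genome 230 2.0 array each, which leaves 3 values a strain. The samples analysed include no low-salt group, and blood pressure was not analysed here.

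The 6 genes act at different points. Adamts16 (chromosome 1) encodes a secreted metalloprotease of the matrix, and its disruption on the S background is known to lower blood pressure. Rffl (chromosome 10), also called rififylin, is a RING-type ubiquitin ligase of endosomes that affects the recycling of membrane proteins. Plekha7 (chromosome 1) sits at epithelial adherens junctions and Fh (chromosome 13) is fumarase, the citric acid cycle enzyme that turns fumarate into malate. Sh2b3 (chromosome 12), also called Lnk, is an adaptor that damps cytokine receptor and JAK kinase signalling in blood cells, and Cd247 (chromosome 13) is the zeta chain that carries the signal of the T cell receptor. Sh2b3 and Cd247 link the kidney's salt response to immune cells, since mutation of either on the S background is known to lessen hypertension and renal injury.

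The values are MAS5 signals, a linear brightness per probe set, brought by the submitters to one scale on every array. Congenic replicates 1 and 3 stood apart: the 6 hepatocyte markers summed to 9413 on congenic replicate 1 and to 105 to 196 on the other 5 arrays, and the 4 adrenal markers to 5356 on congenic replicate 3 and to 128 to 141 elsewhere. The 7 measured kidney epithelial markers, led by Umod, Slc34a1 and Lrp2, summed to 24790 to 25278 on congenic arrays and 24006 to 25644 on S arrays. Among them Aqp2, the collecting duct water channel, measured 3002 to 3418 on congenic arrays and 2466 to 2883 on S arrays, without overlap (log2 fold change 0.23, SE 0.070, unadjusted p = 0.00767, limma adjusted p = 0.710). The 5 urothelial markers, of the lining of the renal pelvis, summed to 401 to 470 on congenic arrays and 494 to 542 on S arrays, also without overlap. Krt19 weighed most in these sums, at 207 to 245 on congenic arrays and 253 to 264 on S arrays. Taken singly, Krt19 and Upk1b did not overlap between strains, while Upk1a, Upk2 and Upk3a did. Over all tested probe sets, 12.5% did not overlap. Sums overlapped for the 4 fat markers (587 to 837 on congenic arrays and 801 to 931 on S arrays) and the 4 red cell markers (9132 to 10439 on congenic arrays and 8576 to 10083 on S arrays). The 3' over 5' actin ratio, a sign of RNA integrity, was 6.15 to 7.17 on congenic arrays and 6.54 to 9.42 on S arrays. Tests used limma on log2(signal + 16), for which a probe set had to have a mean signal of at least 25.6 over the 6 arrays. Fold changes are congenic over S on that scale and understate the change of dim probe sets.

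**Figure D1:**
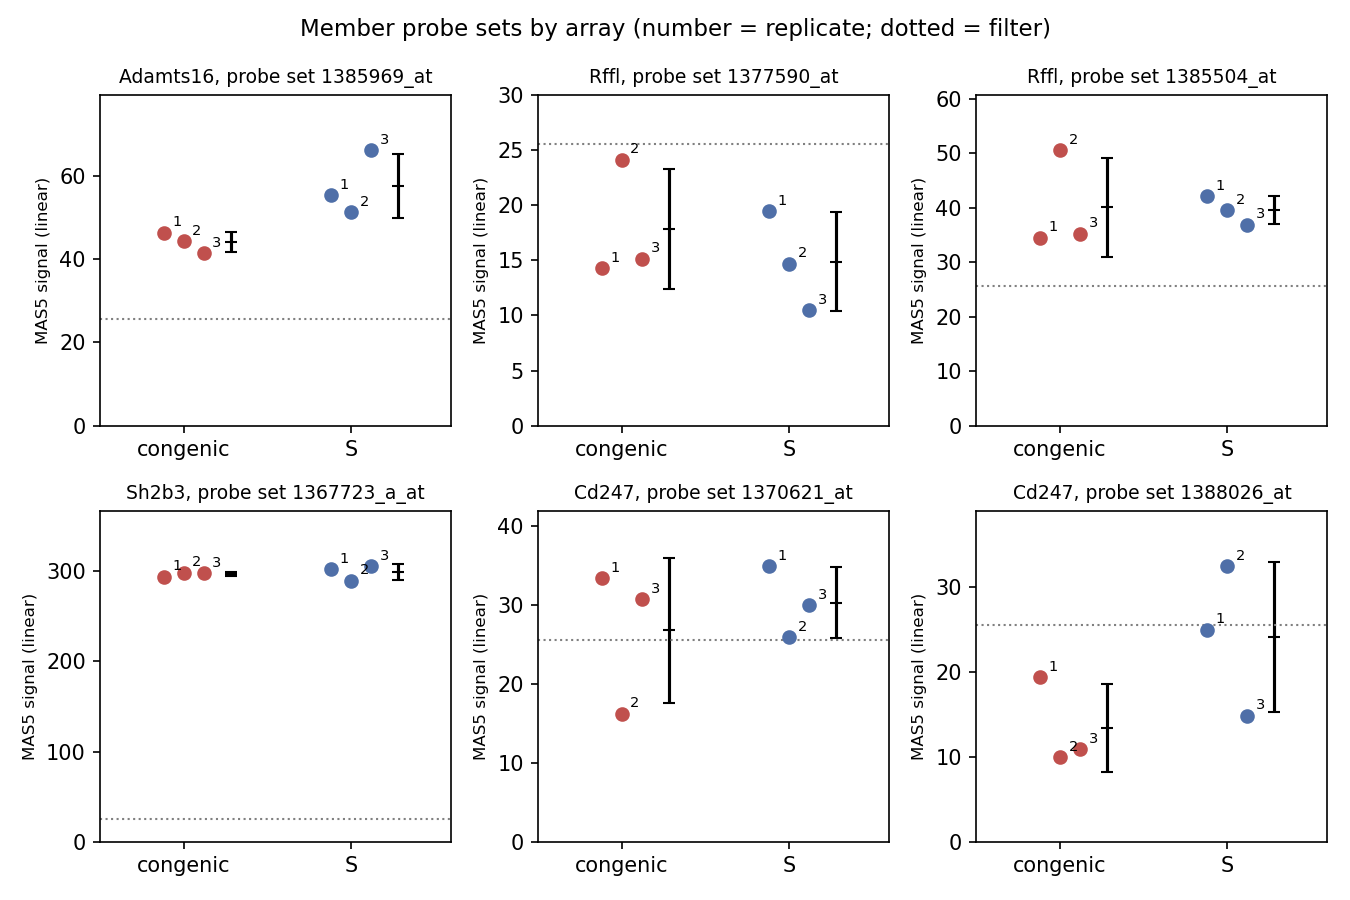
MAS5 signal (linear, vertical axes from 0) of the 6 member probe sets on each array, congenic on the left and S on the right, with the replicate number beside each point. Black bars give the mean ± SD (n = 3 each) and the dotted line the filter at 25.6. Adamts16 is the one panel in which the strains do not overlap, and the points of Sh2b3 lie almost level.

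Of the 6 member probe sets, 4 passed the filter on low signals, 1 for each of the 4 genes measured, and 0 of these 4 passed limma's test at an adjusted p of 0.05. The background was the same: 0 of 18625 tested probe sets passed (0%), with a smallest adjusted p of 0.164. At an unadjusted p under 0.05, 1 of the 4 members, Adamts16, was counted, against 6.61% (1232) of all tested probe sets. The strains did not overlap for 1 of the 4, again Adamts16, against 12.5% of all tested probe sets. With so few members these shares do not set the genes apart from the rest of the array. The pools come from different rats, so p-values measure the spread between pools, and 3 arrays against 3 allow no exact permutation p under 0.1.

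Adamts16, the matrix protease, had the lower signals in congenic kidneys. Its probe set (1385969_at) measured 46.4, 44.4 and 41.6 on the congenic arrays, against 55.3, 51.3 and 66.2 on the S arrays. All 3 congenic arrays lay below all 3 S arrays, the nearest pair being congenic replicate 1 and S replicate 2. The means were 44.1 ± 2.45 in congenic and 57.6 ± 7.71 in S pools (SD, n = 3 each). This was a log2 fold change of -0.29 (SE 0.12, 95% interval -0.56 to -0.020). On the signal + 16 scale that is 0.819 times the S value, with an interval of 0.680 to 0.986. This understates the change in the signal itself, as the probe set is dim. By limma the unadjusted p was 0.0378 and the adjusted p 0.750, so it did not pass. Of all tested probe sets, 4.87% had a larger absolute log2 fold change, and 6.79% had all congenic arrays below all S arrays.

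The Adamts16 difference kept its direction whichever array was left out. Leaving out each array in turn gave -0.35 to -0.21, the smallest without S replicate 3, the brightest array. Of these fits, only those without congenic replicate 1 and without S replicate 2 had an unadjusted limma p under 0.05. Against congenic replicate 2 alone, the congenic array without liver or adrenal transcripts, the difference was -0.28 (SE 0.18). In that fit the single congenic array is assumed to vary like the S arrays. With a pseudocount of 64 in place of 16 the value was -0.17, as a larger pseudocount shrinks the change of a dim probe set. Over all alternatives the adjusted p stayed between 0.562 and 0.997. Urothelial markers moved the same way as Adamts16: the 4 that were tested, of 5, were all at negative log2 fold changes, from -0.35 (Upk3a) to -0.16 (Krt19), with a median of -0.29. Upk1b was at -0.29 (SE 0.11, unadjusted p = 0.0258) and Upk1a at -0.29 (SE 0.13, unadjusted p = 0.0453), with limma adjusted p of 0.750 each, while Upk2, below the filter, was at 0.13. This direction was not particular to urothelium. The 3 tested fat markers, of 4, were also all negative, from -0.25 (Adipoq) to -0.18 (Plin1), with Lep, below the filter, at 0.028. Of the 7 kidney epithelial markers, 3 were higher and 4 lower. The part of any of these markers in the Adamts16 difference was not tested.

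The relatives and the substrate of Adamts16 lay on both sides of 0. Of 16 listed genes, the other ADAMTS proteases with fibronectin (Fn1) and the inhibitor Timp3, 10 were tested, 5 higher and 5 lower, with a median log2 fold change of -0.0034 beside -0.0068 over all 10658 genes tested. None passed limma's test (0 of 10, and 0 at an unadjusted p under 0.05). Adamts1, a protease of versican and aggrecan, measured 931, 601 and 655 in congenic pools and 604, 662 and 576 in S pools, so its value of 0.22 (SE 0.14) came from congenic replicate 1, the array with liver transcripts. Without that array it was 0.034, and without congenic replicates 1 and 3 -0.027. Adamts12, Adamts9 and Adamts5, the last an aggrecanase, had log2 fold changes of -0.13 (SE 0.11), -0.13 (SE 0.12) and -0.13 (SE 0.12), each with overlapping strains. Single arrays moved these values: Adamts9 was at -0.019 without S replicate 3 and -0.27 without S replicate 1, Adamts12 at -0.048 without S replicate 3 and Adamts5 at -0.015 without congenic replicate 1. A second probe set of Adamts5 was at 0.0048, and one of Adamts9, below the filter, at 0.32.

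Sh2b3, the adaptor that restrains cytokine signalling, varied least across arrays of the 6 member probe sets. Its probe set (1367723_a_at) measured 294, 298 and 298 in congenic pools, against 302, 289 and 305 in S pools. The highest array was 1.05 times the lowest, and the congenic values lay inside the S range. The means were 296 ± 2.44 in congenic and 299 ± 8.39 in S pools (SD, n = 3 each). This was a log2 fold change of -0.011 (SE 0.066, 95% interval -0.16 to 0.14). In folds the interval runs from 0.896 to 1.10, on the signal + 16 scale and with 3 arrays a strain (limma adjusted p = 0.979).

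The genes around Sh2b3, its SH2B relatives, the cytokine receptors and the JAK and STAT proteins, gave 13 tested genes of 19 listed, 8 higher and 5 lower, with a median log2 fold change of 0.026 and 0 past limma's test (0 also at an unadjusted p under 0.05). Sh2b1, an enhancer of JAK2 and leptin signalling, measured 456, 439 and 404 in congenic pools and 443, 396 and 338 in S pools, a log2 fold change of 0.14 (SE 0.096), which was 0.044 without S replicate 3 and 0.23 without S replicate 1. Sh2b2, the third adaptor of the family, measured 35.2, 46.6 and 42.0 in congenic pools against 23.0, 20.2 and 46.1 in S pools, and the strains overlapped through S replicate 3 (log2 fold change 0.36, SE 0.20), with 0.21 without S replicate 2 and 0.60 without S replicate 3. Cbl, a ubiquitin ligase for activated receptors, was at 324, 342 and 344 in congenic pools and 318, 311 and 309 in S pools, without overlap (0.10, SE 0.066), whereas its other 3 probe sets, of which 1 lay below the filter, were at 0.047, 0.075 and -0.041 with overlap. The transcription factor Stat5b, near the filter at 25.9, 28.8 and 23.7 in congenic pools and 38.0, 31.0 and 29.7 in S pools, was at -0.21 (SE 0.14), or -0.14 without S replicate 1. For 2 of the 13, Cbl and Stat5b, the strains did not overlap, near the 12.7% found over all genes tested.

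Cd247, the T cell receptor zeta chain, was dim, and its probe sets gave differences of unlike size. Probe set 1370621_at measured 33.4, 16.3 and 30.7 in congenic pools, against 34.9, 26.0 and 30.0 in S pools. Congenic replicate 2 was the lowest, while the other congenic arrays lay within the S range. The means were 26.8 ± 9.24 in congenic and 30.3 ± 4.48 in S pools (SD, n = 3 each). This was a log2 fold change of -0.13 (SE 0.18, 95% interval -0.54 to 0.27, limma adjusted p = 0.904). The value rested on that 1 array: without congenic replicate 2 it was 0.058, and with congenic replicate 2 as the only congenic array it was -0.52 (unadjusted p = 0.0393, adjusted p = 0.997).

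The other Cd247 probe set, 1388026_at, lay below the filter and was not tested. It measured 19.3, 9.93 and 10.9 in congenic pools, against 25.0, 32.4 and 14.8 in S pools. Congenic replicate 1 lay above S replicate 3, so the strains overlapped. The means were 13.4 ± 5.18 in congenic and 24.1 ± 8.81 in S pools (SD, n = 3 each), a difference of -0.44 in log2(signal + 16), and with no filter limma gave it an adjusted p of 0.848. Congenic replicate 2 was the lowest array in both probe sets, whereas S replicate 2 was the highest of the S arrays in one and the lowest in the other.

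Most other T cell markers also lay below the filter. Of the 6 T cell markers 2, Cd3g and Lck, passed the filter, and Cd3e, Cd3d, Cd2 and Cd5 did not. Summed, the 6 markers gave 177 to 220 on congenic arrays and 176 to 214 on S arrays, ranges that largely coincide. Lck and Cd3g weighed most in these sums. Cd2, below the filter, measured 17.2, 16.2 and 17.9 in congenic pools and 12.7, 12.4 and 13.4 in S pools, without overlap. The other T cell markers overlapped between strains, and over all tested probe sets 12.5% did not overlap. Cd3e, a partner of Cd247 in the receptor complex, measured 29.2, 11.3 and 18.8 in congenic pools and 20.6, 18.03 and 18.2 in S pools. Cd3g measured 52.0, 62.6 and 34.0 in congenic pools and 53.5, 31.8 and 50.1 in S pools, so congenic replicate 2, the lowest for Cd247, was the highest for Cd3g. In whole kidney RNA, a change in T cell number and a change in RNA per T cell cannot be told apart, and neither was tested.

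Of 17 listed genes of the T cell receptor complex, its kinases and T cell surface, 6 were tested, 4 higher and 2 lower, with a median log2 fold change of 0.068 and 0 past limma's test (0 at an unadjusted p under 0.05). Lat, the membrane scaffold downstream of the receptor, measured 37.7, 38.6 and 33.7 in congenic pools and 22.5, 33.5 and 32.1 in S pools, without overlap (log2 fold change 0.22, SE 0.14), and was at 0.11 without S replicate 1, its lowest array. Fyn, a Src-family kinase that many tissues express, measured 91.9, 73.1 and 85.8 in congenic pools and 93.7, 97.7 and 95.6 in S pools, also without overlap. It was at -0.17 (SE 0.10), and -0.092 without congenic replicate 2, while its second probe set was at 0.0010. For 2 of the 6, Lat (higher) and Fyn (lower), the strains did not overlap, against 12.7% of all genes tested. Zap70, the kinase that docks on phosphorylated zeta chain, was at -0.16 (SE 0.14), or -0.089 without congenic replicate 2. Its second probe set, below the filter, was at 0.32. The Zap70 gene lies on chromosome 9, the chromosome of the R segment, and whether it falls inside the segment was not examined. Lcp2, an adaptor of the same pathway, was at 0.16 (SE 0.15), or 0.058 without S replicate 1. The median of the 6 was -0.019 without congenic replicate 2 and -0.030 without S replicate 2. The 6 measured general leukocyte markers summed to 3241 to 3577 on congenic arrays and 3167 to 3418 on S arrays. Most of each sum was Cd74, at 2519 to 2912 on congenic arrays and 2507 to 2735 on S arrays.

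**Figure D2:**
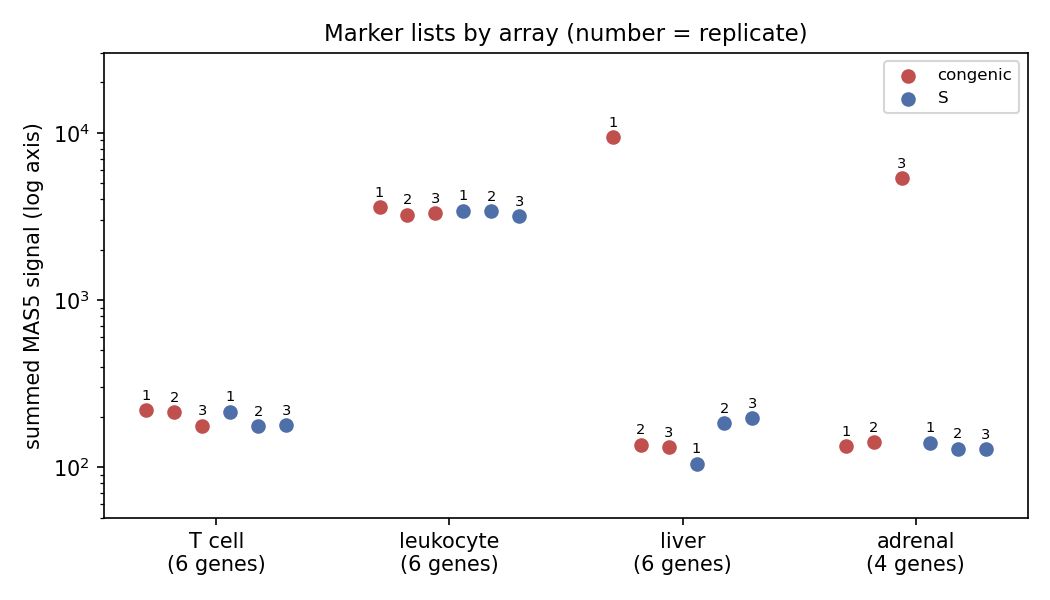
Summed MAS5 signal (log axis) of the T cell, leukocyte, liver and adrenal marker lists on each array, congenic in red and to the left of S in blue, with the replicate number above each point. T cell sums lie between 176 and 220 on all 6 arrays, and the liver and adrenal sums stand out on congenic replicates 1 and 3.

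Rffl, the endosomal ubiquitin ligase, showed no strain difference beyond its spread in either probe set. Probe set 1385504_at measured 34.5, 50.6 and 35.3 in congenic pools, against 42.1, 39.6 and 36.9 in S pools. Congenic replicate 2 was the highest of all 6 arrays and the other congenic arrays the lowest. The means were 40.1 ± 9.07 in congenic and 39.5 ± 2.61 in S pools (SD, n = 3 each). This was a log2 fold change of 0.0036 (SE 0.14, 95% interval -0.31 to 0.32, limma adjusted p = 0.998). In folds the interval of 0.805 to 1.25 still holds changes of the size seen for Adamts16. Without congenic replicate 2 the value was -0.13, and with it as the only congenic array 0.26.

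Probe set 1377590_at of Rffl lay below the filter at 14.3, 24.1 and 15.2 in congenic pools and 19.4, 14.7 and 10.5 in S pools. Congenic replicate 2 was again the highest array, and within the S strain both probe sets ran in the same order, with replicate 1 above replicate 2 above replicate 3. The difference was 0.13 in log2(signal + 16), and with no filter limma gave it an adjusted p of 0.924.

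Around Rffl, 13 of 18 listed genes of RING ligases, caspases and endosomal recycling were tested, 8 higher and 5 lower. Their median log2 fold change was 0.045, with 0 past limma's test. These figures include Ehd3, described next. Of the remaining genes, 0 were at an unadjusted p under 0.05. Ehd3, an endosomal recycling ATPase that is also a marker of glomerular endothelium, measured 24.6, 34.0 and 38.5 in congenic pools and 21.2, 13.3 and 24.9 in S pools, a log2 fold change of 0.44 (SE 0.18), with congenic replicate 1 just below S replicate 3. All 3 S arrays lay under the filter of 25.6, so Ehd3 was tested only because its congenic signals are high. Its p is not given as a result. Ehd3 stays in the tested count, the count of higher genes and the list median. Its mean fell under the filter without congenic replicate 2 or 3. The 5 measured endothelial markers summed to 1885 to 2213 on congenic arrays and 1988 to 2311 on S arrays. Mdm2, the ubiquitin ligase of p53, measured 393, 355 and 372 in congenic pools and 341, 319 and 348 in S pools, a log2 fold change of 0.15 (SE 0.071), with 2 other probe sets at 0.096 and -0.20. The apoptosis inhibitor Birc2 was at 0.13 (SE 0.072), and like Mdm2 it did not overlap between strains. For 3 of the 13 genes, 2 higher and 1 lower, the strains did not overlap, against 12.7% of all genes tested. Casp8, the initiator caspase, was at 0.12 (SE 0.10), at 0.051 without congenic replicate 1 and at -0.081 without congenic replicates 1 and 3. Casp8 lies on chromosome 9, the chromosome of the R segment, and whether it falls inside the segment was not examined.

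**Figure D3:**
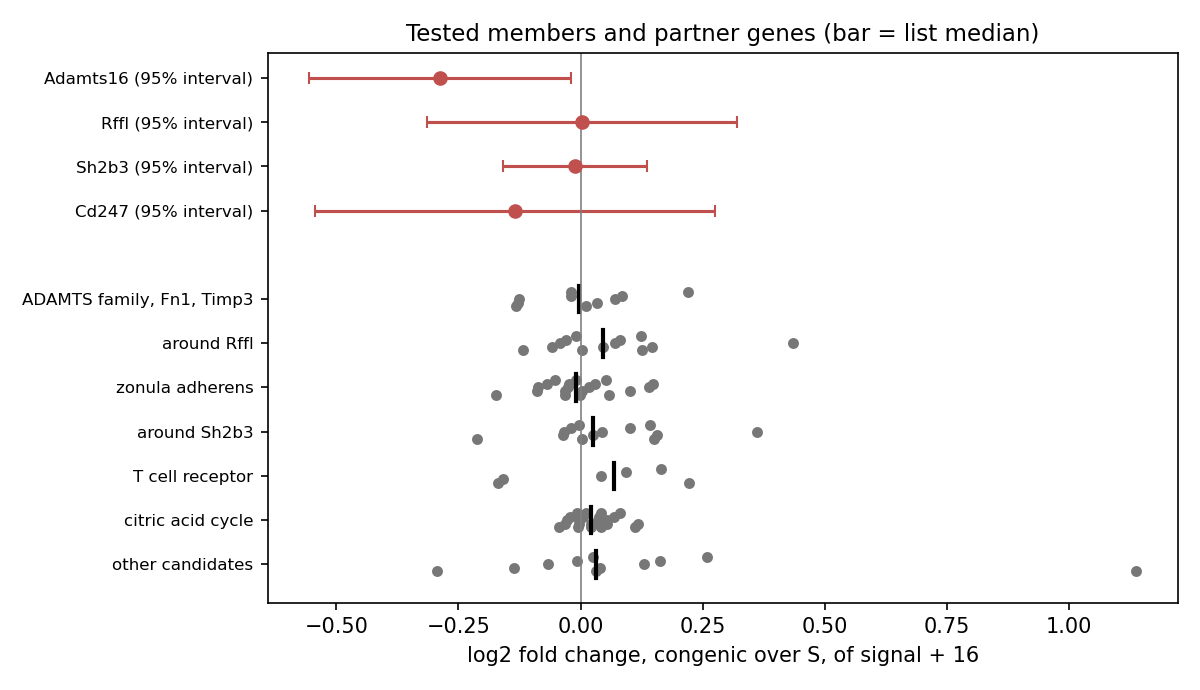
Log2 fold change, congenic over S, of signal + 16 (horizontal axis). Red points with bars are the 4 tested member probe sets with their 95% intervals, grey points the tested genes of each partner list, black bars the list medians. The intervals of Rffl, Sh2b3 and Cd247 cross 0, and the list medians lie between -0.010 and 0.068.

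For Plekha7 and Fh, which no probe set named, only lists of their partners were followed, and these give no value for either gene. All 19 listed genes of the zonula adherens, the junction at which Plekha7 binds p120-catenin, were tested, with 8 higher, 11 lower and a median log2 fold change of -0.0096. None passed limma's test, and 1 of the 19 had an unadjusted p under 0.05, against 6.62% of all genes tested. This was Cgnl1 (paracingulin), which binds Plekha7 at the junction. Cgnl1 measured 3109, 3248 and 3172 in congenic pools and 2818, 2925 and 2902 in S pools, without overlap. Its log2 fold change was 0.14 (SE 0.045, unadjusted p = 0.0113, limma adjusted p = 0.721), and a second, dimmer probe set was at -0.18 (SE 0.13). Camsap3, which ties microtubule minus ends to Plekha7, measured 134, 141 and 127 in congenic pools and 164, 161 and 135 in S pools (-0.17, SE 0.096). Nectin3, a junction receptor, was at 0.10 (SE 0.072), and Vcl (vinculin), an actin linker, at -0.088 (SE 0.068), or -0.042 without congenic replicate 3. Other probe sets of Vcl were at 0.011 and -0.27.

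Of the citric acid cycle and the other enzymes that make or use fumarate, 22 of 23 listed genes were tested. With 14 higher and 8 lower, all lay between -0.043 and 0.12, with a median log2 fold change of 0.021, and 0 passed limma's test. The balance moved with single arrays: 9 were higher and 13 lower without congenic replicate 3 (median -0.0061), and 19 higher and 3 lower without congenic replicate 2 (median 0.026). Mdh1, the cytosolic malate dehydrogenase, measured 4570, 4369 and 4233 in congenic pools and 3971, 4099 and 4055 in S pools, a log2 fold change of 0.12 (SE 0.046, unadjusted p = 0.0279, limma adjusted p = 0.750), but a second probe set was at -0.10 (SE 0.080). Sdhc, a subunit of the succinate dehydrogenase complex that makes fumarate, measured 2695, 2778 and 2899 in congenic pools and 2567, 2663 and 2511 in S pools (0.11, SE 0.050, unadjusted p = 0.0479, adjusted p = 0.752). With each array left out in turn, Mdh1 ran from 0.089 to 0.14 and Sdhc from 0.085 to 0.14, and against congenic replicate 2 alone they were at 0.11 and 0.11. These were 2 of the 22 genes at an unadjusted p under 0.05, against 6.62% of all genes tested. None of the 22 was under it with quantile normalization, median centring, the replicate number as a block or no intensity trend. The same held without congenic replicate 2 and without S replicate 1. The other alternatives that kept more than 1 congenic array left 1 or 2 of the 22 under it. The fellow subunits of Sdhc (Sdha, Sdhb and Sdhd) were at -0.043, -0.0070 and 0.038. Mitochondrial malate dehydrogenase (Mdh2), which takes up the product of fumarase, was at -0.021, the isocitrate dehydrogenase Idh2 at 0.053 and pyruvate carboxylase (Pc) at 0.080, with 0.050 without S replicate 3 and 0.13 without S replicate 2.

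Other genes mutated or proposed in salt-sensitive rat hypertension gave 11 tested of 18 listed, 7 higher and 4 lower, with a median log2 fold change of 0.032 and 0 past limma's test. Nr2f2 is a nuclear receptor proposed at another Dahl locus. It was the 1 gene of the 11 with an unadjusted p under 0.05, against 6.62% of all genes tested. Nr2f2 measured 2049, 2211 and 2174 in congenic pools and 1790, 1943 and 2015 in S pools, without overlap. Its log2 fold change was 0.16 (SE 0.059, unadjusted p = 0.0201, limma adjusted p = 0.743), whereas 2 dimmer probe sets were at 0.033 and 0.031. Nox4, the renal NADPH oxidase, measured 125, 83.9 and 87.0 in congenic pools and 164, 111 and 102 in S pools (-0.29, SE 0.18), with -0.11 without S replicate 1 and -0.45 without congenic replicate 1. The potassium channel Kcnj1 was at 0.26 (SE 0.13), with 0.15 without S replicate 1 or congenic replicate 2 and 0.40 without S replicate 3. Cyp11b1, the adrenal 11-beta-hydroxylase whose alleles differ between Dahl strains, measured 2.999, 0.595 and 150 in congenic pools and 2.16, 0.455 and 0.430 in S pools. Its signal of 150 fell on congenic replicate 3, the array on which the adrenal markers summed to 5356, and Cyp11b1 passed the filter only through that array. It is still counted among the 11 tested and the 7 higher, and enters the list median.

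**Figure D4:**
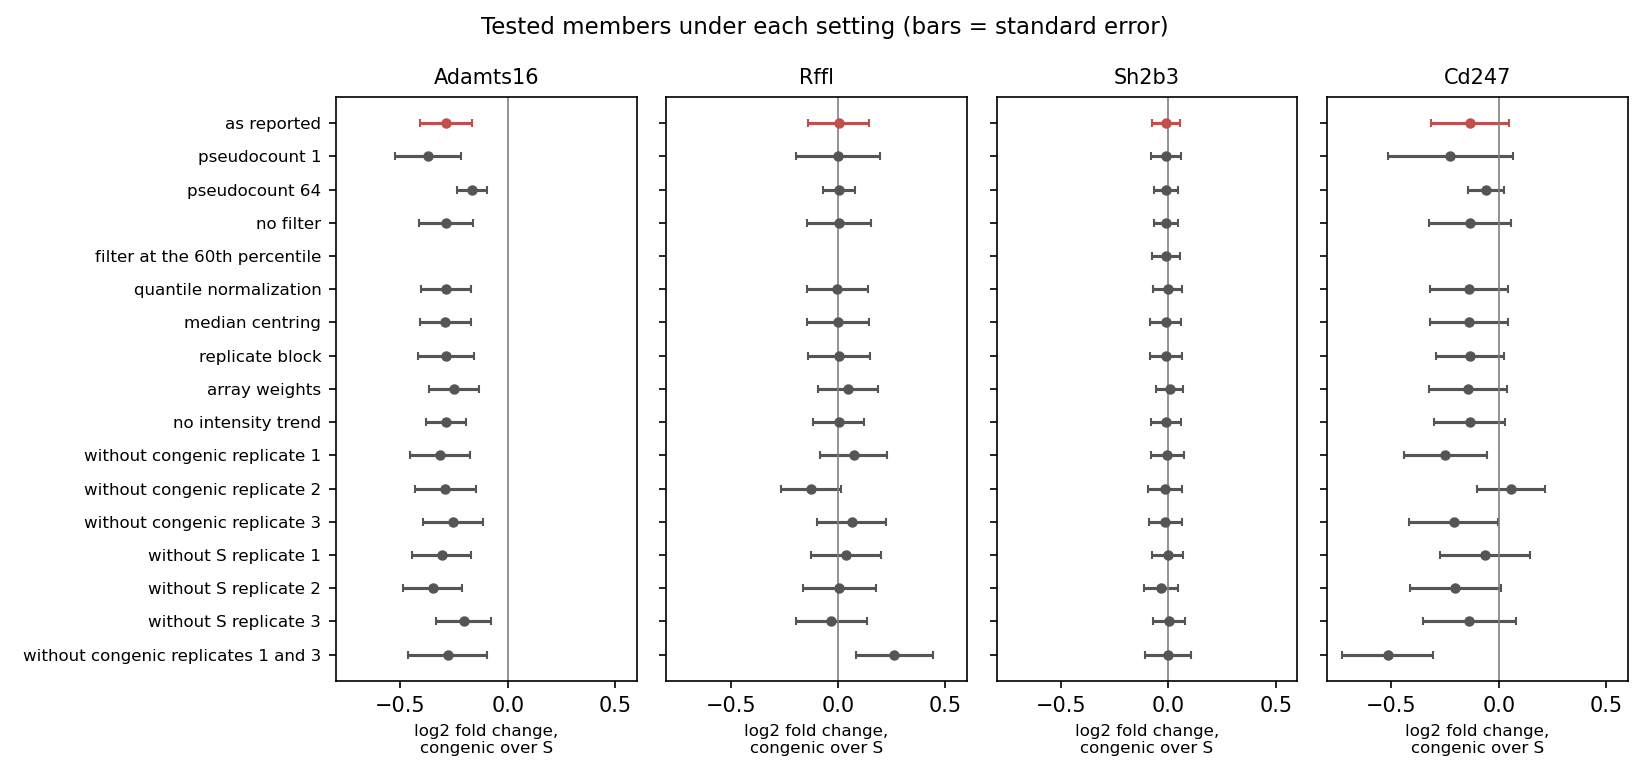
Log2 fold change, congenic over S, of the 4 tested member probe sets (panels) under each processing setting (rows), with standard errors, the reported setting in red. Adamts16 stays below 0 in every setting that gives it a value, Sh2b3 stays within -0.033 to 0.0060, and Rffl and Cd247 lie on either side of 0, Cd247 above it when congenic replicate 2 is left out.

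The probe sets most like each member were found by the root mean square difference of centred log2(signal + 16) over the 6 arrays, using the brighter probe set of each gene. For Adamts16 these were Nfrkb (0.037), Slc25a35 (0.047) and Nubp2 (0.049), where the spread of Adamts16 about its own mean was 0.17. For Rffl, with a spread of 0.14, they were Ints13 (0.036), Naa12 (0.040) and Sp1 (0.046). For Sh2b3, with a spread of 0.024, they were Erlec1 (0.0068), Igip (0.014) and Dram2 (0.015). For Cd247, with a spread of 0.22, they were Ndufaf1 (0.067), Zbtb7c (0.069) and Ddb2 (0.070). With 6 arrays and 18625 probe sets, some profiles come this close without any link between the genes.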

How the data were processed

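The deposited values were MAS5 signal intensities, 1 linear value per probe set and array, per the submitters' processing notes. Neither the scaling target nor any detection call was part of the sources used here. With the extreme 2% at each end left out, every array had a mean of 150, so values are relative to the array and a change shared by most genes would not show. Gene names are those of the platform annotation, brought up to date by gene ID with the RefSeq table of GRCr8 (names and chromosomes only). Of the probe sets, 20826 had 1 symbol (20758 matched), 436 had several and 9780 had none. The 57 control probe sets and 12417 below the 40th percentile of the mean signal were left out. limma 3.58.1 in R 4.3.3 (lmFit, eBayes with an intensity trend) fitted log2(signal + 16) of 18625 probe sets, 2-sided, with Benjamini-Hochberg adjustment over all of them. The fit was tested on simulated data.

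Every member probe set was named. Of each partner list, the 4 tested genes with the smallest p were named, each gene by its brightest tested probe set, and the 3 nearest profiles of each member gene. Cd2, Cd3e, Cd3g, Aqp2, the urothelial markers, the single fat markers, Mdh2 and the further Sdh subunits were added after their values were seen. The members and lists were chosen with earlier results of these data known. Alternatives were pseudocounts 1 and 64, no filter or the 60th percentile, quantile normalization, median centring, array weights, no trend, the replicate number as a block, and leaving out arrays. Precision is limited by having 3 arrays a strain, with a median standard error of 0.10 on the log2 scale.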

Additional observations from a re-analysis of the deposited data

How the results depend on the processing

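The number of member probe sets past limma's adjusted threshold was 0 under every alternative run. Over all probe sets it was 0 to 1 when each array was left out, the 1 being St3gal2 without congenic replicate 2 (adjusted p = 0.0302), and 0 otherwise. Of 63 values of members under the alternatives, 56 kept their direction and 7 turned. For Rffl (1385504_at) these were -0.00016 with pseudocount 1, -0.0028 with quantile normalization, -0.13 without congenic replicate 2 and -0.031 without S replicate 3. Sh2b3 was at 0.0060 with array weights and 0.0033 without S replicate 3, and Cd247 (1370621_at) at 0.058 without congenic replicate 2. Of 436 values of named partners 4 turned, all without congenic replicates 1 and 3: Adamts1 to -0.027, Adamts12 to 0.0043, Casp8 to -0.081 and Lcp2 to -0.044. With each array left out in turn, Rffl ran from -0.13 to 0.074, Sh2b3 from -0.033 to 0.0033 and Cd247 from -0.25 to 0.058. For these values the cause was not tested. Adamts16 had an unadjusted p under 0.05 in 7 of its 15 alternatives and a p of 0.0505 with no filter. At the 60th percentile filter Sh2b3 was the one member still tested. Partner lists had 0 genes called under each alternative; their medians under the alternatives, added after the data were seen, ran from -0.048 to 0.11.

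With the replicate number as a block, Adamts16 was at -0.29 (unadjusted p = 0.0569, adjusted p = 0.728), and 0 members and 0 probe sets were called. Same-numbered deviations correlated at 0.037, 0.014 and 0.021. Differently numbered ones ran from -0.046 to 0.038, the highest being congenic replicate 2 with S replicate 3. With 3 arrays a strain, such small correlations cannot settle whether the numbers pair the arrays.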
